A study of Homo sapiens with 10 samples.

Results

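THZ531 and Endovion, given singly and together to 22RV1 cells, were compared as a factorial design of 8 libraries, chosen by their group labels out of 10 in the series. The 22RV1 cell line was derived from a prostate tumour that grew on after castration. The design held 4 groups of 2 libraries each. Control cells had no compound and no time listed, and the others received THZ531, 50 μM Endovion or both for 4 h. The dose of THZ531 was 100 nM in the study's methods and 150 nM in the description of the series, and which of these was used could not be settled. The labels do not say whether control cells received a solvent. All cells, controls included, received 4-thiouridine for the last 10 min, so that RNA made in that time carried a label that reads as a T-to-C change after alkylation and sequencing (SLAM-seq). The remaining pair of libraries, from cells given 20 μM SRPIN340, entered the fit to share the estimate of the spread and no interaction term. Nothing in the labels says that replicates were separate cultures, so p-values measure the spread between these libraries, which may be technical.

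THZ531 blocks CDK12, a kinase that phosphorylates RNA polymerase II and is needed for transcription to run through many long genes, DNA repair genes among them. Endovion was studied as an inhibitor of SRPK1, a kinase that phosphorylates SR proteins, the splicing factors that help to define exons. Where 2 compounds act on a gene independently, their effects multiply on the linear scale and add on the log2 scale. The interaction term measures the departure from that sum: the log2 level with both compounds, minus that with THZ531, minus that with Endovion, plus that of control. A value of 0 is additivity, a negative value means that the combination lay below the sum of the single responses, and a positive value means that it lay above.

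The 8 libraries held 35517462 to 52788183 mapped reads and 1011605 to 1576125 reads with a T>C conversion on genes. T>C reads are called nascent below and all reads are called total, as the mRNA that the cells held. T>C reads were 5.66% ± 0.0435 of the reads on genes in control, 5.43% ± 0.282 with THZ531, 5.11% ± 0.0737 with Endovion and 5.14% ± 0.136 with both (SD, n = 2). No library without 4-thiouridine was analysed, so T>C reads that arise without label are not measured. Levels are CPM, the count scaled to library size after TMM normalisation, which fixes the bulk of genes, so a shift of all transcription in one direction cannot be seen. The epithelial keratin KRT18 stood at 354 to 484 CPM of all reads over the libraries. COL1A2 and PECAM1, markers of fibroblasts and endothelium, had 0 reads and the leukocyte marker PTPRC had 0 to 6. Not all markers of other cells were that low. The fibroblast marker COL1A1 had 40 to 80 reads and the liver marker ALB 195 to 326, beside 49 to 227 for the prostate marker KLK3. Less transcription per cell and fewer cells cannot be told apart in such bulk samples.

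Few genes passed the test of the interaction itself. A gene was called where the Benjamini-Hochberg adjusted p of edgeR's quasi-likelihood test was below 0.05 and the log2 value was at least 1 in size. Of 9946 genes tested on nascent reads, 28 were called with a negative interaction (0.282%) and 2 with a positive one (0.0201%). Of 14690 genes tested on total reads, 1 was called negative (0.00681%) and 0 positive (0%). At the study's own threshold, an unadjusted p below 0.05 with the same size, there were 347 negative and 213 positive genes on nascent reads, and 576 and 179 on total reads. DESeq2 called 154 negative and 8 positive genes on total reads after adjustment. An unadjusted p below 0.05 was seen in 7.71% of all genes on nascent reads and in 12.97% on total reads.

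The genes called with a negative nascent interaction were lower in control cells than in any treated group. All 28 were above control in every treated group, with both treated libraries above both control libraries. Their median log2 difference from control was 1.76 with THZ531, 2.20 with Endovion and 1.91 with both. The combination differed from THZ531 alone by a median of 0.03 and from Endovion alone by -0.03, and none of the 28 was called in either comparison. Single genes departed from these medians: RBM23 and PRDM10 differed by -1.56 and -1.07 between the combination and Endovion, and NFYA by 0.82. The median interaction was -1.75. Values ran from -5.07 to -1.02 apart from SGSH, a lysosomal sulfatase outside the rule for named genes, which had 1 and 0 T>C reads in control and for which no fold is given. The combination also lay below a plain sum of the 2 increases on the linear scale in 28 of 28, by a median log2 of -0.76. The 28 were chosen by the interaction in these same libraries, a choice that favours low levels in control and with both compounds. The counts and medians of this paragraph therefore describe the chosen genes and add no separate evidence.

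MNAT1, a subunit of the CDK-activating kinase of the general transcription factor TFIIH, had the smallest p. It lies on the plus strand at chr14:60734742-60969965 (hg38, GENCODE v44 gene bounds). Nascent MNAT1 stood at 3.22 and 4.81 CPM in the control libraries, 103 and 161 with THZ531, 102 and 136 with Endovion, and 115 and 113 with both. All treated libraries were far above control and overlapped each other. The interaction was -5.07 ± 0.46 (SE, adjusted p 7.65e-12). It kept its call without any one library. Total MNAT1 moved less, with an interaction of -2.16 ± 0.92 (adjusted p 0.404), and T>C reads made up 2.70% and 11.1% of its reads in the control libraries against 25.7% to 54.5% in the treated ones. The source of this high share was not tested.

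**Figure D1:**
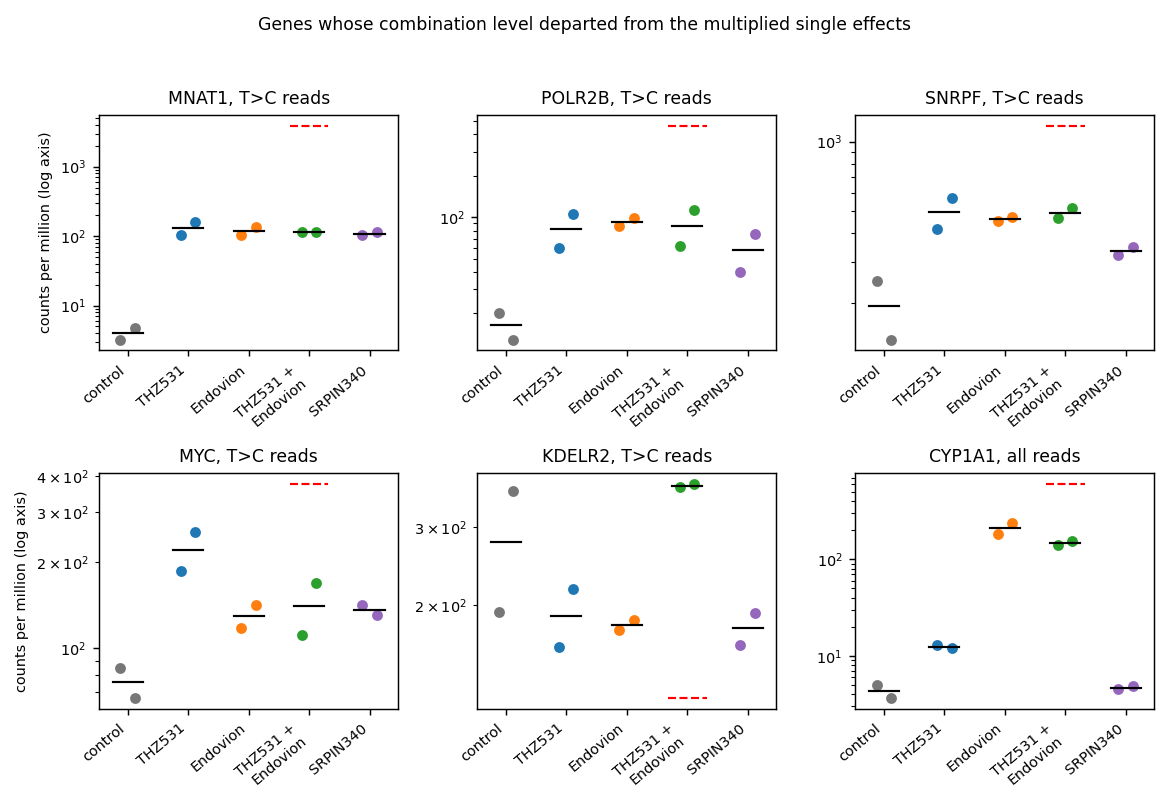
Level in each library (points, CPM on a log axis) and group mean (black bar) for 5 genes on T>C reads and for CYP1A1 on all reads, in control, THZ531, Endovion, both compounds and SRPIN340 (2 libraries each). The red dashed line is the level that the multiplied single effects would give for the combination, and the green points lie below it for MNAT1, POLR2B, SNRPF, MYC and CYP1A1 and above it for KDELR2.

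Of the lists for RNA processing and elongation, 1 of 46 core spliceosome genes, 1 of 24 cleavage and polyadenylation genes, 1 of 33 elongation and CDK genes and 0 of 36 SR factors and splicing kinases were called below additivity. Over all genes tested the share was 0.282%. A single call describes that gene and no trait of its list. POLR2B, the 2nd largest subunit of RNA polymerase II, stood at 20.0 and 12.8 CPM in control, 59.9 and 105 with THZ531, 85.9 and 99.1 with Endovion and 61.9 and 112 with both (interaction -2.37 ± 0.47, adjusted p 0.0126). SNRPF, a core protein of the spliceosomal snRNPs, stood at 249 and 138 CPM in control and at 419 to 570 in the 6 treated libraries (-1.25 ± 0.26, adjusted p 0.0187). NUDT21, a subunit of the cleavage factor that binds upstream of polyadenylation sites, stood at 62.4 and 52.96 CPM in control and at 141 to 228 in treated libraries (-1.43 ± 0.30, adjusted p 0.0187). For each of these the control libraries lay below all treated ones. The treated groups overlapped, except that NUDT21 was higher in both libraries with both compounds than in those with Endovion. NFYA, a subunit of the factor that binds CCAAT boxes, had an interaction of -2.58 ± 0.55, and PRDM10, a zinc finger protein, one of -3.06 ± 0.65 (adjusted p 0.0187 for both). HNRNPF and RBM23, which encode RNA-binding proteins, had -1.14 and -3.34, and PABPC4, a poly(A)-binding protein, -1.34. On total reads SGSH had an interaction of -0.75 ± 0.26 (adjusted p 0.289), and the combination was 0.86 ± 0.19 above Endovion (adjusted p 0.00886).

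The other called genes had varied roles. TRAF7, a ubiquitin ligase, had 122 and 107 CPM in control and 212 to 306 in the treated libraries (-1.49 ± 0.27, adjusted p 0.00256). SDCBP, the adaptor protein syntenin, had 21.9 and 8.83 CPM in control and 52.1 to 112 in the treated libraries (-2.08 ± 0.45, adjusted p 0.0198). NDUFB3, a subunit of respiratory complex I, and MRPL16, a mitochondrial ribosomal protein, had interactions of -2.99 ± 0.61 and -2.84 ± 0.62. ZNF227, a zinc finger gene of chromosome 19, had -3.19 ± 0.73, and PRC1, which bundles microtubules at cell division, -1.80 ± 0.44. These 4 were single members of their lists: 1 of 73 tested respiratory chain genes, 1 of 73 mitochondrial ribosomal proteins, 1 of 136 zinc finger genes and 1 of 43 G2/M genes were called, against 0.282% of all genes. PRC1 shares an interval with another gene, so its reads cannot be assigned to it alone.

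MYC, a transcription factor that drives growth genes, was called with THZ531 and with a negative interaction. Nascent MYC stood at 85.0 and 66.6 CPM in control, 187 and 255 with THZ531, 117 and 141 with Endovion, and 111 and 169 with both. The THZ531 libraries lay above all others and the combination overlapped Endovion alone. Against control, the log2 difference of MYC was 1.53 ± 0.22 with THZ531 (adjusted p 2.89e-06), 0.76 ± 0.23 with Endovion (adjusted p 0.0563) and 0.87 ± 0.23 with both (adjusted p 0.00877). The interaction was -1.42 ± 0.32 (adjusted p 0.0256), while the direct difference between the combination and THZ531 was -0.65 ± 0.22 and missed the threshold (adjusted p 0.281). On total reads the interaction was -1.74 ± 0.55 (adjusted p 0.312). The nascent call was lost without any of 5 libraries, with the highest adjusted p, 0.337, on leaving out THZ531 replicate 2 (log2 -1.18).

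The number of called genes depended on single libraries. In total reads, control replicate 1 lay above control replicate 2 in 27 of the 28 genes, by a median log2 of 0.93 against 0.04 over all genes tested. THZ531 replicate 2 lay above replicate 1 by a median of 0.69 in the same genes. NDUFB3, for example, had 335 total reads in one control library and 25 in the other. Leaving out control replicate 2 left 3 negative calls, of which 2 were among the 28, and leaving out control replicate 1 gave 97. Without THZ531 replicate 2 there was 1 call, and without replicate 1 there were 70. Without Endovion replicate 1 or 2 there were 1 and 8, and without replicate 1 or 2 of the combination 2 and 9. The part that the spread between control libraries and between THZ531 libraries had in the pattern was not tested. The total interaction was below 0 in 28 of 28, and 19 passed the study's unadjusted threshold, but total and nascent reads come from the same libraries.

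**Figure D2:**
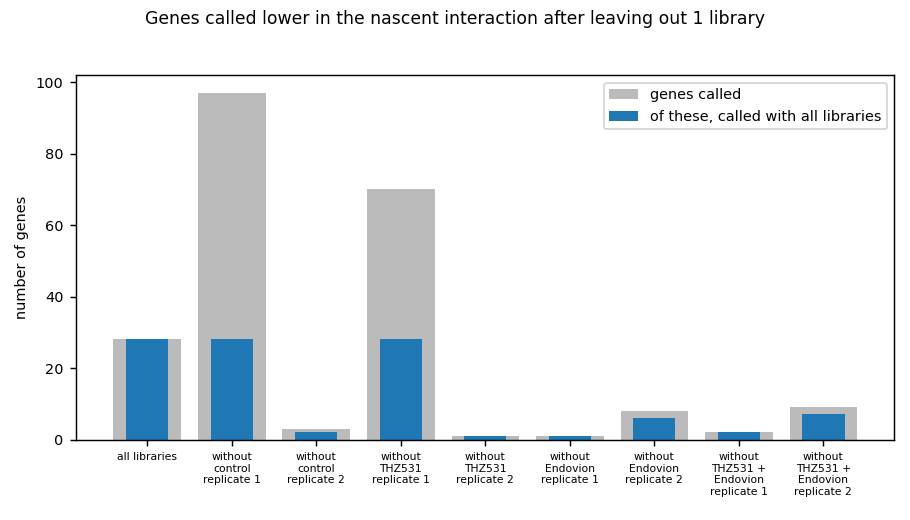
Number of genes called with a negative nascent interaction (grey bars) with all libraries and after each of the 8 libraries was left out in turn. The inner blue bars count those that were also called with all libraries, which numbered 28 and fell to 1 without THZ531 replicate 2 or Endovion replicate 1.

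KDELR2 and WNT7B were the 2 genes called with a positive nascent interaction. KDELR2, the receptor that returns proteins to the endoplasmic reticulum, stood at 192 and 361 CPM in control, 161 and 218 with THZ531, 176 and 185 with Endovion, and 369 and 376 with both (chr7:6445953-6484190, minus strand). The combination lay above both single treatments and at the level of the higher control library. It was 0.99 ± 0.20 above THZ531 (adjusted p 0.00731) and 1.05 ± 0.20 above Endovion (adjusted p 0.00244), which gave an interaction of 1.60 ± 0.29 (adjusted p 0.00256). Total KDELR2 stood at 144 to 187 CPM throughout, with an interaction of 0.04 ± 0.16. The nascent call was lost without control replicate 2 (1.08, adjusted p 0.216) and without Endovion replicate 1 (1.56, adjusted p 0.064).

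WNT7B, a secreted WNT ligand, fell outside the rule for named genes because T>C reads were already 29.0% of its reads in control. It had 33 and 43 T>C reads in control, 55 and 14 with THZ531, 0 and 0 with Endovion, and 19 and 32 with both. Taking 3 counts in each Endovion library as the floor, control was at least 10.7-fold and the combination at least 9.17-fold higher than Endovion alone. Its total reads were 38 and 43 with Endovion against 54 and 60 with both, and the total interaction was 1.18 ± 0.53 (adjusted p 0.367).

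Most called nascent responses were smaller when the other compound was present, and a few genes were called with and without it. Each response was looked at in 2 comparisons that use no library in common: the compound alone against control, and the combination against the other compound. Genes were chosen by the first comparison, so its median is set by that choice, and the second is the held-out value. Called sets in the first comparison on nascent reads were 166 genes higher and 22 lower with Endovion (1.67% and 0.221%), and 261 higher and 273 lower with THZ531 (2.62% and 2.74%). Adding Endovion to THZ531 called 10 higher and 6 lower (0.101% and 0.0603%), and adding THZ531 to Endovion called 28 higher and 66 lower (0.282% and 0.664%).

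**Figure D3:**
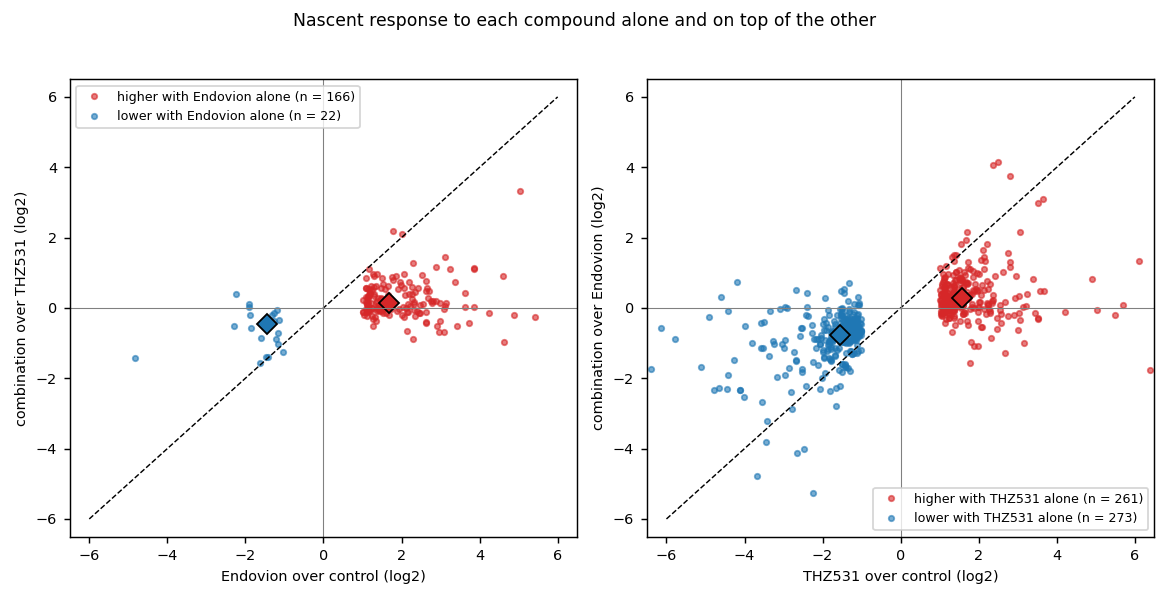
Nascent log2 response to Endovion (left) and THZ531 (right) alone, on the horizontal axis, and on top of the other compound, on the vertical axis, for genes called with the compound alone. Points are genes and diamonds are medians, and on the dashed line the response is the same with and without the other compound. Diamonds lie at 1.69 and 0.15 (higher) and -1.46 and -0.45 (lower) for Endovion, and at 1.56 and 0.27 and -1.55 and -0.77 for THZ531.

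Genes lower with THZ531 had the held-out median of largest size among the 4 sets. Their median log2 was -1.55 alone and -0.77 on top of Endovion, 93.4% of the 273 were below 0 in the second comparison against 49.9% of all genes, and 43 were called in both (15.8% of 273 and 65.2% of 66). For the 261 genes higher with THZ531 the medians were 1.56 and 0.27, with 72.8% in the same direction against 50.1% of all genes and 13 called in both (4.98% of 261 and 46.4% of 28). For the 166 genes higher with Endovion they were 1.69 and 0.15, with 65.7% in the same direction against 51.4% and 4 called in both (2.41% of 166 and 40% of 10). For the 22 lower with Endovion they were -1.46 and -0.45, with 86.4% in the same direction against 48.6% and 4 called in both (18.2% of 22 and 66.7% of 6). No gene was called in opposite directions in the 2 comparisons. Median interactions over these sets were 0.82 and -1.24 for genes lower and higher with THZ531, and -1.49 and 1.08 for genes higher and lower with Endovion, and the choice by the first comparison moves them away from 0. Genes called the same way in both comparisons have an interaction near 0 by that choice, so the interactions given for them below are a description. The set higher with Endovion depended on the THZ531 libraries, since its held-out median was -0.16 without THZ531 replicate 1 and 0.53 without replicate 2.

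Total reads were described in the same way. Called sets were 949 lower and 834 higher with THZ531 (6.46% and 5.68%), and 49 lower and 503 higher with Endovion (0.334% and 3.42%). On top of Endovion, THZ531 called 434 lower and 97 higher (2.95% and 0.66%), and on top of THZ531, Endovion called 4 lower and 18 higher (0.0272% and 0.123%). The 949 genes had medians of -1.63 alone and -1.05 on top of Endovion, 97.0% lay in the same direction, and 352 were called in both. Medians were 1.45 and 0.32 for the 834, 1.41 and 0.24 for the 503, and -1.22 and -0.54 for the 49. Over all genes, the slope of the second response on the first was 0.406 for THZ531 and 0.135 for Endovion on total reads (Pearson r 0.554 and 0.165 over 14690 genes), and 0.287 and 0.102 on nascent reads (r 0.354 and 0.111 over 9946 genes). These describe genes that share the same few libraries and their depth, and genes are not independent replicates. Spread between libraries in the first response lowers such slopes even where effects add, so they do not measure how much response was lost.

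The Endovion responses that stood on top of THZ531 belonged to xenobiotic metabolism, to stress at the endoplasmic reticulum, and to prostate genes. The 4 genes called higher in both comparisons were CYP1A1, CYP1B1, CHAC1 and HERPUD1. CYP1B1, a cytochrome P450 that is a target of the aryl hydrocarbon receptor (AHR), stood at 45.7 and 36.1 CPM in control, 25.4 and 43.7 with THZ531, 125 and 208 with Endovion, and 121 and 168 with both (chr2:38066973-38109902, minus strand). The 4 libraries with Endovion lay above the 4 without it. The response was 2.01 ± 0.28 alone and 2.10 ± 0.30 on THZ531 (adjusted p 9.42e-06), with an interaction of 0.09 ± 0.41, and it was called without any one library.

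CYP1A1, the classical AHR target, was the only gene called in the total interaction. In total reads it stood at 5.03 and 3.66 CPM in control, 12.9 and 11.96 with THZ531, 184 and 238 with Endovion, and 141 and 155 with both (chr15:74719542-74725536, minus strand). The groups did not overlap one another. It was 1.51 ± 0.17 higher with THZ531 (adjusted p 2.57e-05), 5.59 ± 0.18 higher with Endovion, and 3.57 ± 0.17 higher when Endovion was added to THZ531. The interaction was -2.02 ± 0.23 (adjusted p 0.00201), and it was called without any one library. The combination also lay below the linear sum, by a log2 of -0.56. On nascent reads, with only 4 to 19 T>C reads in the libraries without Endovion, the response was 5.02 ± 0.40 alone and 3.34 ± 0.39 on THZ531, and the interaction of -1.69 ± 0.62 was not called (adjusted p 0.381).

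CHAC1, which degrades glutathione and is a target of the stress factor ATF4, stood at 27.7 and 20.1 CPM of nascent reads in control, 16.9 and 6.10 with THZ531, 80.6 and 85.6 with Endovion, and 57.6 and 55.1 with both. The Endovion response was 1.78 ± 0.34 alone and 2.19 ± 0.38 on THZ531 (adjusted p 0.000703), with an interaction of 0.41 ± 0.51. HERPUD1, a component of the machinery that removes misfolded proteins from the endoplasmic reticulum, stood at 68.2 and 56.2 CPM in control, 57.9 and 42.7 with THZ531, 122 and 157 with Endovion, and 125 and 93.5 with both. Its response was 1.15 ± 0.25 alone and 1.10 ± 0.26 on THZ531 (adjusted p 0.0325), with an interaction of -0.06 ± 0.36. For both genes the 4 libraries with Endovion lay above the 4 without it. The HERPUD1 call on THZ531 was lost without either THZ531 library or without replicate 1 of the combination, with values of 0.87 to 1.35.

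**Figure D4:**
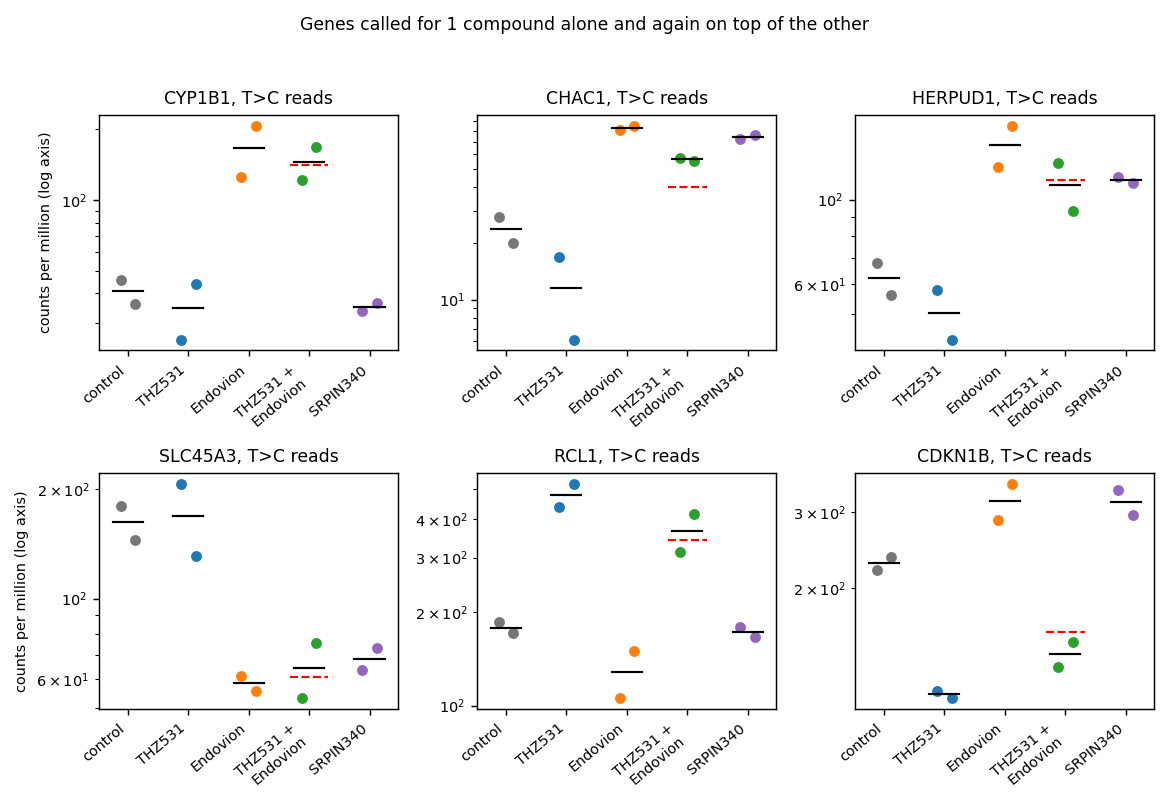
Level in each library (points, CPM of T>C reads on a log axis) and group mean (black bar) for 6 genes called with a compound alone and again on top of the other, in control, THZ531, Endovion, both compounds and SRPIN340 (2 libraries each). The red dashed line is the level that the multiplied single effects would give, and the combination lies close to it, with interactions from -0.18 (CDKN1B) to 0.41 (CHAC1).

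Promoters of these genes are shown because their response to Endovion was seen with and without THZ531 and because known elements for AHR and for stress factors can be looked for in them. The sequences are from RefSeq (GRCh38.p14), each runs 5′ to 3′ on the gene's strand from 250 bases before to 50 bases after the annotated start, and CYP1B1 is named only. Capitals mark GCGTG, the core of the AHR element, in CYP1A1 (chr15:74725479-74725778, minus strand), TTGCATCA, a core of the ATF4 element, in CHAC1 (chr15:40953221-40953520, plus strand) and HERPUD1 (chr16:56931892-56932191, plus strand), and also the endoplasmic reticulum stress element ERSE-II in HERPUD1.
CYP1A1: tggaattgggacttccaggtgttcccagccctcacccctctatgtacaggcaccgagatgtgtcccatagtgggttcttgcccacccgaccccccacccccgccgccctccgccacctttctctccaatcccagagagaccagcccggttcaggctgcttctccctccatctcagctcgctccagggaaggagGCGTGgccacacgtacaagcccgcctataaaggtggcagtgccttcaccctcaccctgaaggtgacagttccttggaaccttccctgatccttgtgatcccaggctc
CHAC1: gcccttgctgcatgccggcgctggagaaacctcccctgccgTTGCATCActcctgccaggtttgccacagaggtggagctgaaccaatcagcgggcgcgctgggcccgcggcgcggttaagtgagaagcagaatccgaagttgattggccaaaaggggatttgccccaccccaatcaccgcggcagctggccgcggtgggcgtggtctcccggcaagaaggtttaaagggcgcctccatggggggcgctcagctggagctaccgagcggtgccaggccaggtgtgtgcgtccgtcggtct
HERPUD1: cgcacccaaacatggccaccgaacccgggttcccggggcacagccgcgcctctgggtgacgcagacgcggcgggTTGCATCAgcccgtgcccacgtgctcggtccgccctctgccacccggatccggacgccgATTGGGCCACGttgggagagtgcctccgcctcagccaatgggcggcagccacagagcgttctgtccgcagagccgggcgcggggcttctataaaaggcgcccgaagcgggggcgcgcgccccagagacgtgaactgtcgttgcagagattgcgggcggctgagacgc

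Matches were sought on both strands of all 35116 promoters of this length. GCGTG was found in 36.5% of them and in CYP1A1 at -57 from the start, so its presence is common. CHAC1 held it too, at -51. TTGCATCA was found in 0.866% of promoters, in CHAC1 at -209 and in HERPUD1 at -176. ERSE-II was found in 0.0541%, and HERPUD1 held it at -117, apart from the other match. TGATGNAA, whose reverse complement overlaps TTGCATCA, was found in 3.62% and gave the same places in both genes. The longer element ERSE (0.0769%) and TGACGTCA, the cyclic AMP element (1.85%), had no match in these 3 windows. The motifs were chosen after the values were seen, and a match describes the letters and no binding.

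Among the 4 genes called lower with Endovion in both comparisons were SLC45A3, PMEPA1 and HES7. SLC45A3, a prostate transporter induced by androgen, stood at 180 and 145 CPM in control, 207 and 131 with THZ531, 61.4 and 55.8 with Endovion, and 53.4 and 75.8 with both. Its response was -1.47 ± 0.25 alone and -1.41 ± 0.25 on THZ531 (adjusted p 0.00107). PMEPA1, an androgen-induced inhibitor of TGF-beta signalling, had -1.16 ± 0.20 and -1.01 ± 0.21 (adjusted p 0.00655). HES7, a transcriptional repressor that acts downstream of Notch, had -1.05 ± 0.25 and -1.24 ± 0.25. In each of these genes the libraries with Endovion lay below those without it that share the THZ531 state. These 3 calls on THZ531 were lost without replicate 1 of the combination and without THZ531 replicate 1, with values of -1.17 to -0.70.

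THZ531 responses that stood on top of Endovion included cell cycle, DNA repair and RNA processing genes. CDKN1B, the cell cycle inhibitor p27, stood at 220 and 237 CPM of nascent reads in control, 115 and 111 with THZ531, 288 and 350 with Endovion, and 130 and 150 with both. The 4 libraries with THZ531 lay below the 4 without it. The response was -1.01 ± 0.19 alone and -1.19 ± 0.19 on Endovion (adjusted p 4.68e-05), with an interaction of -0.18 ± 0.26. TERF2, a protein of telomere ends, had -2.95 ± 0.41 and -1.92 ± 0.36, and CREB1, a cyclic AMP-responsive factor, -1.85 ± 0.27 and -1.17 ± 0.27. PCF11, a factor of cleavage and transcription termination, had 16 and 39 T>C reads in control and 2 and 1 with THZ531. On total reads, where it was better covered, its response was -3.64 ± 0.25 alone and -2.68 ± 0.22 on Endovion, with an interaction of 0.96 ± 0.33 (adjusted p 0.28). SMG8 and an unnamed gene among the 43 lower in both comparisons had the same reads, since their intervals coincide.

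Of 45 tested genes of DNA damage repair, 7 were called lower and 1 higher with THZ531 on nascent reads, against 2.74% and 2.62% of all genes, and 0 were called in the interaction. On total reads 6 of 55 were called lower and 3 higher, against 6.46% and 5.68% of all genes, with a median of -0.03. FANCF, a Fanconi anaemia protein, stood at 83.0 and 64.2 CPM in control, 11.1 and 21.4 with THZ531, 57.5 and 65.4 with Endovion, and 33.9 and 6.89 with both. It was -2.24 ± 0.40 alone and -1.55 ± 0.39 on Endovion. ERCC4, a nuclease of nucleotide excision repair, had 22 and 12 T>C reads in control, 0 and 0 with THZ531, 14 and 31 with Endovion, and 0 and 4 with both. Its total response was -2.78 ± 0.27 alone and -2.26 ± 0.25 on Endovion. The other 5, BRIP1, BARD1, RAD50, XRCC2 and TOPBP1, had -1.70 to -1.19 alone and -0.81 to -0.18 on Endovion, where none of the 5 was called, and interactions of 0.53 to 1.34 that were not called either. XRCC2, for homologous recombination, had the smallest adjusted p of these, 0.187. CHEK1, the checkpoint kinase, was the 1 called higher (1.14 ± 0.21) and stood 0.46 ± 0.21 higher on Endovion. The FANCF and ERCC4 calls on Endovion were lost without single libraries and under DESeq2, with values still below 0.

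Among the 13 genes higher with THZ531 in both comparisons, RCL1, a factor of ribosomal RNA processing, stood at 185 and 171 CPM in control, 436 and 520 with THZ531, 106 and 150 with Endovion, and 313 and 416 with both. It rose by 1.42 ± 0.18 alone and 1.52 ± 0.19 on Endovion (adjusted p 2.58e-07). TAF5L, a subunit of histone acetylase complexes, had 2.11 ± 0.28 and 1.65 ± 0.29, and TMEM201, a nuclear membrane protein, 2.20 ± 0.28 and 1.83 ± 0.32. These 3 were called without any one library. KITLG, the ligand of the receptor KIT, had 1.69 ± 0.44 and 2.15 ± 0.48, ERRFI1, a feedback inhibitor of the EGF receptor, 1.68 ± 0.52 and 1.93 ± 0.53, and GADD45A, a stress and growth arrest gene, 1.32 ± 0.38 and 1.44 ± 0.40. The others with a symbol were RSRP1, CDKN2D, KLF10 and TFAP2A-AS1. KITLG differed between readouts, since on total reads its response was 1.80 ± 0.27 alone and 0.72 ± 0.26 on Endovion (adjusted p 0.142).

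Functional lists showed which groups of genes kept either response. The AHR list had 7 of 12 members tested on nascent reads, of which 3 were called higher with Endovion, against 1.67% of all genes (CYP1A1, CYP1B1 and TIPARP). Its median was 2.01 with Endovion alone and 1.504 on THZ531, with a median interaction of 0.09 against 0.00 over all genes. With 7 genes each median is the value of 1 gene. That gene was CYP1B1 for Endovion alone and for the interaction. On THZ531 it was TNFAIP2, with 0 T>C reads in control (SE 1.30). Total reads, with 10 genes tested, gave lower medians of 0.93 with Endovion alone and 0.74 on THZ531. TIPARP, an enzyme that restrains AHR, had 1 and 7 T>C reads in control and 16 to 51 in the treated libraries, and it rose with either compound (2.62 ± 0.70 with THZ531 and 2.53 ± 0.70 with Endovion, interaction -1.59 ± 0.90). NQO1, SLC7A5 and LRAT, of the same list, did not pass either test (-0.31 ± 0.21, -0.16 ± 0.14 and -0.14 ± 0.89 with Endovion). The list of the integrated stress response and ATF4 had a median of 0.43 with Endovion alone and 0.52 on THZ531 over 36 genes, with 3 called higher alone, against 1.67% of all genes, 5 higher with both compounds against control, against 3.34% of all genes, and an interaction median of 0.13. SLC7A11, the cystine transporter, rose by 1.503 ± 0.19 with Endovion and stood 0.84 ± 0.18 higher when Endovion was added to THZ531. SESN2, an inhibitor of mTORC1, had values of 0.72 ± 0.28 with THZ531 and 0.85 ± 0.28 with Endovion and rose by 1.72 ± 0.27 with both (adjusted p 6.66e-06), with an interaction of 0.14 ± 0.38. DDIT4, another inhibitor of mTORC1, had 1.03 ± 0.39 and 1.21 ± 0.39 and rose by 2.39 ± 0.37 with both, with an interaction of 0.14 ± 0.53. SESN2 and DDIT4 passed the test with both compounds and missed it with each.

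**Figure D5:**
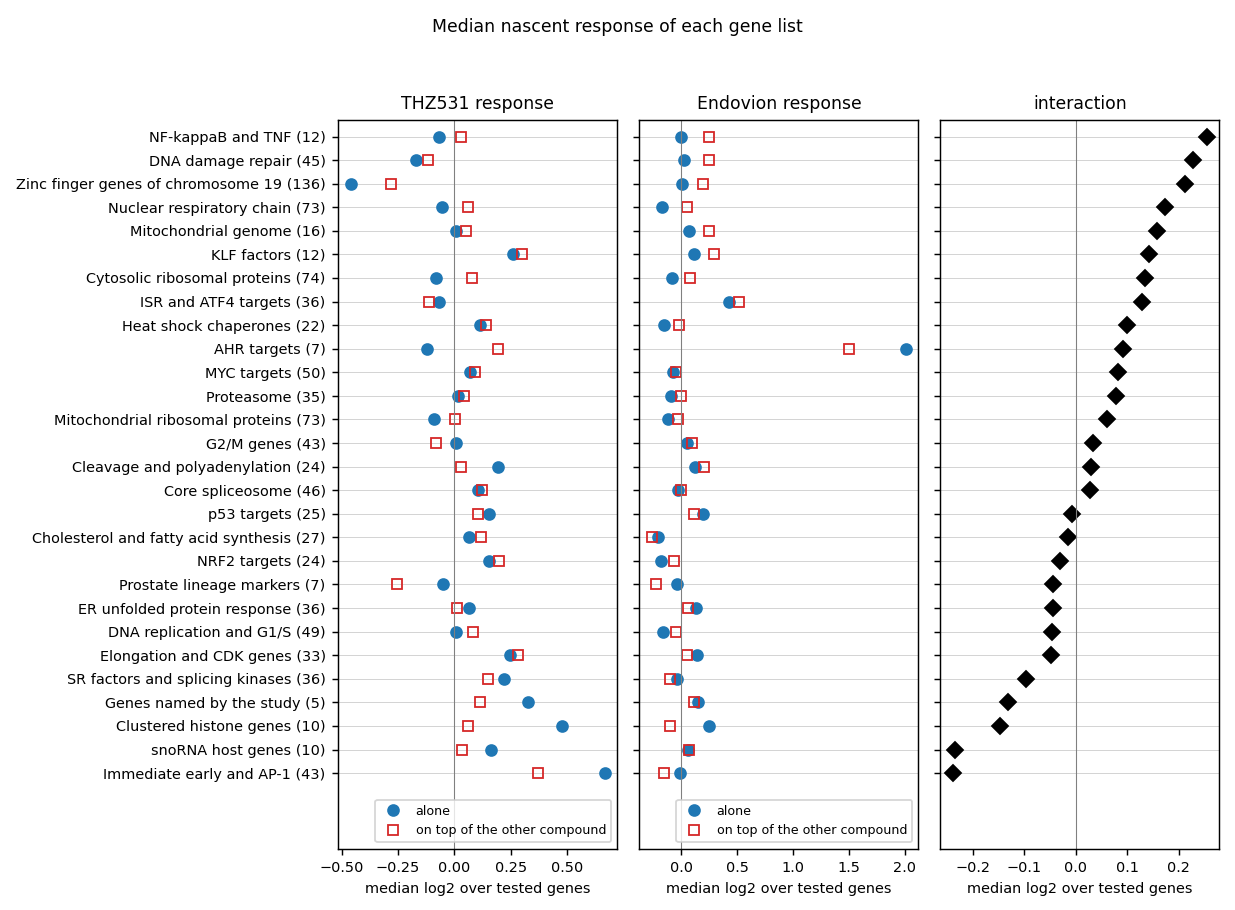
Median nascent log2 response of 28 gene lists, each with at least 3 tested genes (number tested in brackets) to THZ531 (left) and Endovion (middle), alone (circles) and on top of the other compound (open squares), and the median interaction (right). Not every list that met this size is shown. The AHR list lies at 2.01 and 1.504 for Endovion, and interaction medians run from -0.24 for immediate early and AP-1 genes to 0.25 for the NF-kappaB and TNF list.

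Immediate early and AP-1 genes, which growth factors and stress induce within minutes, had the lowest median interaction, -0.24 on nascent reads over 43 tested genes and -0.39 on total reads over 47. Their median with THZ531 was 0.67 alone and 0.37 on Endovion, and 8 were called higher with THZ531, against 2.62% of all genes. With Endovion the median was -0.01 alone and 2 were called higher, against 1.67% of all genes. Of the 43, 13 had an interaction above 0, while the median over all genes was 0.00. The 2 called interactions were MYC and PNRC1, a nuclear receptor coregulator (-1.45 ± 0.34, adjusted p 0.0346), against 0.282% of all genes called below additivity. Unlike MYC, PNRC1 was higher in both libraries with both compounds (230 and 209 CPM) than with THZ531 (118 and 145) or Endovion (137 and 144). The combination was 0.75 ± 0.22 above THZ531 and 0.65 ± 0.22 above Endovion (adjusted p 0.171 and 0.176, not called). Against the linear sum PNRC1 had a log2 of only -0.14. JUN, a subunit of AP-1, was 1.24 ± 0.24 higher with THZ531, 1.29 ± 0.24 with Endovion and 1.58 ± 0.24 with both, with an interaction of -0.95 ± 0.33 (adjusted p 0.345). JUNB, its relative, was 1.2 ± 0.22 higher with THZ531, had -0.24 ± 0.23 with Endovion, and was 0.96 ± 0.23 higher when THZ531 was added to Endovion (adjusted p 0.0159). IER5L, an immediate early gene of the nucleus, was 1.16 ± 0.16 higher with THZ531 and stood 0.95 ± 0.16 lower when Endovion was added to it (log2 -0.95, adjusted p 0.000454). Its interaction was -0.82 ± 0.23 (adjusted p 0.0937).

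Zinc finger genes of chromosome 19, many of which repress transposable elements, included more genes called lower than higher with THZ531. Of 136 tested on nascent reads, 14 were called lower and 5 higher, against 2.74% and 2.62% of all genes, and their median was -0.46 alone and -0.28 on Endovion. Of 216 tested on total reads, 44 were called lower and 11 higher, against 6.46% and 5.68% of all genes, with medians of -0.51 and -0.36. Median interactions were 0.21 and 0.14. ZNF566 had -2.42 ± 0.39 alone and -2.21 ± 0.41 on Endovion on nascent reads. SRPK1 and CDK12, the intended targets, had -0.35 ± 0.37 and 0.37 ± 0.42 on nascent reads, and neither was called.

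Lists of housekeeping genes, and several other lists, held few called members. So did all genes tested, with 0.282% called below additivity and 0.0201% above it on nascent reads. At those shares few calls fall in lists of this size. Median nascent interactions were 0.13 for cytosolic ribosomal proteins (0 called of 74), 0.08 for the proteasome (0 of 35), 0.17 for the nuclear respiratory chain, 0.16 for the mitochondrial genome (0 of 16) and 0.03 for the core spliceosome, where SNRPF was the 1 called of 46. SR factors and splicing kinases had -0.10 with 0 called of 36, and the list of elongation factors and cyclin-dependent kinases -0.05, with MNAT1 the 1 called of 33. MYC targets had 0.08 with 0 called of 50, the unfolded protein response list -0.04 with 0 of 36, and p53 targets -0.01 with 0 of 25. By span of the gene, the median interaction lay between -0.02 and 0.03 on nascent reads in genes under 10 kb, 10 to 50 kb, 50 to 200 kb and over 200 kb, and between -0.08 and 0.05 on total reads.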

How the data were processed

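The authors deposited 1 table per library with counts for 3′ end intervals of transcripts on hg38, made with SLAM-DUNK (version not given in the sources used here), as counts of all reads and of reads with T>C conversions. The submitters' processing notes name Bowtie2 2.3.4.1, SAMtools 1.6 and DESeq2 1.38.2. Whether counts were deduplicated by molecular identifier is not stated, so precision covers counting error and the spread between libraries only. Intervals were matched to GENCODE v44 genes, and of overlapping intervals of a gene the best covered was kept: 57587 of 104653 intervals, for 31015 genes. Unmatched intervals held 3.57% of T>C reads. The build was checked on chromosome 21, where all 1376 intervals held the number of T that hg38 has.

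The test of counts was the quasi-likelihood F test of edgeR 4.0.16 under R 4.3.3 (TMM, filterByExpr, robust fit, group means over 10 libraries, 5 residual degrees of freedom) with Benjamini-Hochberg adjustment. A gene was called at an adjusted p below 0.05 and a log2 of at least 1 in size. DESeq2 1.42.0, the low-count filter, the handling of intervals, the scaling and each library were tried as alternatives, and the test was checked on simulated counts. Named genes were the 8 with the smallest p in each direction with at least 20 reads in every library of the highest group, the same sign in all 16 choices of 1 library per group, at most 20% T>C reads in control and a protein-coding symbol. Called members of gene lists, genes that the study names and 2 or 3 examples per list were added. The genes, lists and tests were chosen with earlier results of these data known. Some items are not reported here.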

Additional observations from a re-analysis of the deposited data

Results flagged for a closer look

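Each called interaction is a difference between the response to a compound with and without the other, by the interaction term of edgeR's quasi-likelihood test. On nascent reads 2 genes were called above additivity and 28 below it, and on total reads 1 was called below. KDELR2 had a log2 interaction of 1.60. Of those below on nascent reads, the ones named by the rule or found in a gene list were MNAT1 (-5.07), ZNF227 (-3.19), PRDM10 (-3.06), NDUFB3 (-2.99), MRPL16 (-2.84), NFYA (-2.58), POLR2B (-2.37), SDCBP (-2.08), PRC1 (-1.80), TRAF7 (-1.49), PNRC1 (-1.45), NUDT21 (-1.43), MYC (-1.42) and SNRPF (-1.25). The others of the 28 are not listed here. On total reads the gene below was CYP1A1 (-2.02).

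The SRPIN340 libraries, which no interaction used, also stood above control in the 28 genes, by a median log2 of 1.46 with a range from 0.71 to 4.75. This comparison shares with the interaction the control libraries, where MNAT1 had only 5 and 6 T>C reads (SRPIN340 gave 153 and 182).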

How the results depend on the processing

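The counts of called interactions moved most. Nascent genes above additivity numbered 213 at the methods' unadjusted threshold, 1 with DESeq2, 0 with a plain sum of overlapping intervals, and 1 without genes over 20% T>C reads in control. Nascent genes below numbered 347 at that threshold, 17 with DESeq2 (16 of them among the 28), 62 with no low-count filter and 2 with the plain sum, which raised the median biological coefficient of variation from 0.237 to 0.318. Total genes above numbered 179 at that threshold, 8 with DESeq2 and 26 with no filter, and those below 576, 154 and 309, and 2 with the 8 libraries of the design alone. Leaving out 1 library gave 0 to 7 and 1 to 97 nascent genes above and below, and 0 to 26 and 1 to 488 total genes, with the highest total counts below, 488 and 214, without control replicate 1 and without THZ531 replicate 1. The held-out median of genes higher with Endovion ran from -0.163 (without THZ531 replicate 1, a reversal) to 0.532, that of genes lower from -1.016 (without control replicate 2) to -0.391, that of genes higher with THZ531 from 0.179 to 0.411, and that of genes lower from -0.909 to -0.693. The THZ531 median was 0.194 with the plain sum and 0.332 scaled by all reads for genes higher, and -0.8356 with DESeq2 for genes lower. The plain sum left 2 of 17 named interactions and 0 of 59 named responses called, and no named value changed sign under any alternative. The cause of these shifts was not tested. With the replicate number as a block there were 2 and 32 nascent genes above and below (25 of the 28 shared) and 0 and 1 total genes, but deviations of same-numbered libraries correlated at -0.0713 to 0.0369 on nascent and -0.150 to 0.0570 on total reads, so the libraries share only a number. Low T>C counts limit the nascent values of genes such as ERCC4 and PCF11.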
